A study of Homo sapiens with 9 samples.

Results

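NTS, DDC, CHGA, CHGB, SYP, ENO2, SCG2 and SCG5 are 8 genes that are used as neuroendocrine markers or that neuroendocrine cells express. All probe sets that the platform annotation pairs with one of these symbols alone were taken and kept apart, which gave 9 probe sets, 2 of them for DDC, among 22215 probe sets of 11963 named genes. They were measured in LNCaP cells, an androgen-responsive human prostate cancer line from a lymph node metastasis. All cells had spent 2 days in RPMI medium with 10% charcoal-stripped serum, which is low in steroid hormones. The 3 groups, of 3 arrays each marked as biological replicates, then received 20 µM gedunin with 1 nM R1881, or 1 nM R1881 with DMSO, or ethanol with DMSO as vehicle. R1881 is a synthetic androgen that resists metabolism, and gedunin is a plant limonoid known as an inhibitor of HSP90 function. Treatment lasted 24 h by the labels. For R1881-labelled arrays the title names 6 h instead, while description and protocol name 24 h. No group received gedunin alone, and all cultures are of 1 cell line.

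Neuroendocrine cells store peptides and amines in dense-core granules and release them on stimulation. Granins (CHGA, CHGB, SCG2) fill these granules, SCG5 acts as a chaperone for the prohormone convertase PCSK2 there, SYP is a membrane protein of small vesicles, and ENO2 is the neuronal form of the glycolytic enzyme enolase. NTS encodes the precursor of the peptides neurotensin and neuromedin N. DDC encodes aromatic L-amino acid decarboxylase, which makes dopamine and serotonin from their precursors. In prostate cancer, a rise of such genes is known to accompany long androgen deprivation, and LNCaP cells have been described to make neurotensin when androgen is withdrawn.

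The labels were set against genes of known androgen response. The prostate-specific antigen gene KLK3 had a mean intensity of 1341 ± 104 under the label R1881 and of 11839 ± 513 under the label vehicle (SD, n = 3 each), a difference of 8.84-fold. KLK2, TMPRSS2 and FKBP5, also induced by androgen, were 20.2-fold, 16.9-fold and 40.2-fold lower under the label R1881. Of 11 measured genes of the androgen list, 5 were called lower under that label (these 4 and STEAP4) and 5 higher (ACKR3, BCHE, CAMK2N1, OPRK1 and UGT2B17, known as genes that androgen represses), and TRPM8 did not pass. The called genes thus ran opposite to the known responses, so groups are called by their labels throughout. If the labels R1881 and vehicle had been exchanged, the first comparison below would change sign at equal size, and the second and the third would change places. Treatment length is a further limit of the labels: by the titles the R1881-labelled arrays had 6 h and the other groups 24 h, so in the first and the second comparison length and treatment cannot be told apart if the titles hold. The 8 of 10 listed luminal prostate markers that were measured averaged above 52.4, the lowest array median, in all 3 groups. Their summed intensity lay between 14270 and 15474 with gedunin, between 6814 and 7397 on R1881-labelled arrays and between 27028 and 29211 on vehicle-labelled arrays. Bright genes such as KLK3 weigh most in this sum, and the calls ran both ways: 3 higher and 4 lower in the first comparison, 4 higher and 3 lower in the second, and 2 higher and 6 lower in the third. Of all genes, 16.3% were called higher and 13.2% lower in the first comparison, 13.7% and 13% in the second, and 14.8% and 11.4% in the third. Summed intensity with gedunin, under the label R1881 and under the label vehicle lay at 170 to 176, 165 to 173 and 158 to 169 for 6 basal epithelial markers, at 586 to 601, 546 to 609 and 559 to 597 for 8 fibroblast markers, and at 182 to 192, 170 to 186 and 182 to 191 for 5 leukocyte markers. Of these, 1 basal marker (ITGA6, log2 fold change 0.26 between R1881 and vehicle labels and 0.30 between gedunin and vehicle) and 1 fibroblast marker (VIM, 0.30 between gedunin and vehicle) passed the test in a comparison. In each group 6 of the 8 fibroblast markers averaged above 52.4, and 1 of the 5 leukocyte markers. Of the 6 basal markers, 1 did so with gedunin, 1 under the label R1881 and 0 under the label vehicle. The part of other cell types in the results below was not tested.

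The promoter sequences of the 3 members with the largest differences below, NTS, DDC and ENO2, are shown because these genes were all highest on R1881-labelled arrays. They are the 250 bases before each annotated start, from RefSeq on GRCh38.p14, written 5′ to 3′ on the gene's strand, and 2 starts were listed for DDC. Of the 8 genes 6 matched the table by symbol. Capitals mark matches, on either strand, to the AP-1 site TGANTCA, the cAMP response element TGACGTCA and its core TGACG, the androgen response element hexamer TGTTCT, the full element as an inverted repeat of that hexamer spaced by 3 bases, the NRF2-bound element TGACNNNGC, or the TATA box as TATANA.
NTS, chr12:85874045-85874294, plus strand: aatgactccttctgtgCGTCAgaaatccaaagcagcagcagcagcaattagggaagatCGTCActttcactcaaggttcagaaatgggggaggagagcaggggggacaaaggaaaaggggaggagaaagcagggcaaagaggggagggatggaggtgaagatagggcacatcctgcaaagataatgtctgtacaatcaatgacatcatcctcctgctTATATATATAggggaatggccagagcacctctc
DDC, first window, chr7:50565406-50565655, minus strand: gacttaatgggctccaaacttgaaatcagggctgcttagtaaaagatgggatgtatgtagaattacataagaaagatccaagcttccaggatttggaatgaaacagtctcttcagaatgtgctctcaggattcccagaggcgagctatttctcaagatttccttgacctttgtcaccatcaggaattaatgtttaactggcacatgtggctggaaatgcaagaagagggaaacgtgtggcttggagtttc
DDC, second window, chr7:50561072-50561321, minus strand: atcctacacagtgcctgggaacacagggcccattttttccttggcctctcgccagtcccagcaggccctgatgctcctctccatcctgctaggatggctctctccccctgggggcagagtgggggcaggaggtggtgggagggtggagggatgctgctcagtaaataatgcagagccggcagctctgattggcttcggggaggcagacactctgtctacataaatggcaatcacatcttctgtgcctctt
ENO2, chr12:6914330-6914579, plus strand: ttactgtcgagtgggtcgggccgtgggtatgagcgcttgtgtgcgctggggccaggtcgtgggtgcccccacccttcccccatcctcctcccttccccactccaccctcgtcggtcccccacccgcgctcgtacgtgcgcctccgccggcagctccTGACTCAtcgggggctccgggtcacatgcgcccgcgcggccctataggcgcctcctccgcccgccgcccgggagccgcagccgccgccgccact
The NTS window held TGACG on the reverse strand, starting 234 and 192 bases before the start, and overlapping TATANA matches between 33 and 24 bases before it. The ENO2 window held TGANTCA once, 94 bases before the start. Neither DDC window held any of the 7 motifs, and no androgen response element hexamer was found in the 4 windows. Of 35116 promoter windows of this length in the table, 21.2% held TGACG, 17.7% TATANA, 6.57% TGANTCA, 12.4% the androgen hexamer, 10.9% the NRF2-bound element, 1.65% TGACGTCA and 0.00285% the full androgen response element. TGACG is contained in TGACGTCA.

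NTS, the neurotensin gene (probe set 206291_at), was bright in every group. Its intensities were 547, 547 and 533 with gedunin plus R1881, 1396, 1405 and 1399 on R1881-labelled arrays, and 392, 449 and 421 on vehicle-labelled arrays. The 3 groups did not overlap, with R1881-labelled arrays far above the others and the gedunin arrays just above vehicle. DDC probe set 205311_at read 498, 495 and 495 with gedunin plus R1881, 3469.7, 3618 and 3306 on R1881-labelled arrays, and 431, 457 and 456 on vehicle-labelled arrays. Again R1881-labelled arrays stood alone, and the gedunin arrays lay just above vehicle without overlap. The second DDC probe set, 214347_s_at, showed almost no signal. It read 13.0, 13.5 and 12.2 with gedunin plus R1881, 15.6, 14.7 and 15.7 on R1881-labelled arrays, and 13.8, 13.7 and 13.5 on vehicle-labelled arrays. Its highest values were also those of R1881-labelled arrays, all under the lowest array median.

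ENO2 (201313_at) was measured near the array median. It read 54.5, 54.0 and 51.0 with gedunin plus R1881, 64.0, 61.6 and 65.1 on R1881-labelled arrays, and 37.6, 33.7 and 33.8 on vehicle-labelled arrays. The groups did not overlap, and the vehicle arrays were the low ones. Their mean, 35.1, lay under the lowest array median of 52.4, so folds of ENO2 against vehicle are approximate. SYP, the synaptophysin gene (213200_at), read 67.9, 67.6 and 67.6 with gedunin plus R1881, 65.6, 68.7 and 56.3 on R1881-labelled arrays, and 69.6, 72.1 and 65.8 on vehicle-labelled arrays. The third array labelled R1881 was lowest, and the groups overlapped.

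The granin genes and SCG5 were dim on all arrays. CHGA (204697_s_at) averaged 23.5 ± 0.723 with gedunin plus R1881, 23.8 ± 1.89 on R1881-labelled arrays and 24.0 ± 0.304 on vehicle-labelled arrays (intensity, mean ± SD, n = 3). CHGB (204260_at) read 17.4, 17.6 and 19.0 with gedunin plus R1881, 15.6, 16.4 and 15.8 on R1881-labelled arrays, and 18.0, 17.3 and 18.3 on vehicle-labelled arrays, lowest in the R1881 label. SCG2 (204035_at) read 17.4, 18.2 and 19.2 with gedunin plus R1881, 17.0, 15.4 and 16.1 on R1881-labelled arrays, and 16.9, 16.0 and 16.4 on vehicle-labelled arrays, highest with gedunin. SCG5 (203889_at) averaged 15.9 ± 0.498 with gedunin plus R1881, 16.1 ± 0.398 on R1881-labelled arrays and 16.9 ± 0.781 on vehicle-labelled arrays (n = 3). In all, 5 of the 9 probe sets averaged under 52.4 in every group, with intensities between 12.2 and 25.7: these 4 genes and the second DDC probe set. No detection calls are used here, so a fold of such dim probe sets is approximate. Exactly equal deposited values were found for 4 arrays of CHGA (23.9), 4 arrays of SCG5 (16.4) and 2 gedunin arrays each of NTS and SYP, where 49.2% of all probe sets had at least 2 equal values and 6.55% at least 4.

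**Figure D1:**
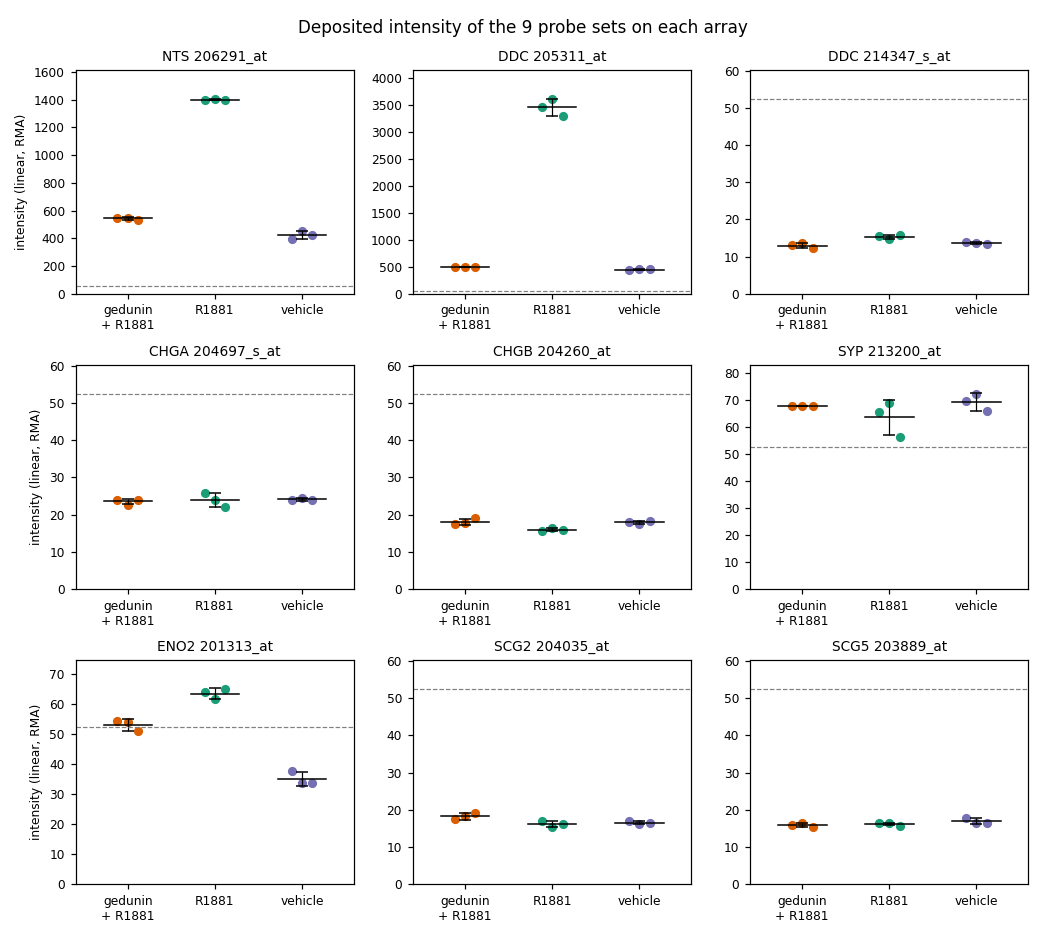
Intensity on a linear scale (y axis) of the 9 probe sets on each of 9 arrays, by label. Points are arrays, bars the mean and SD of 3 arrays, and the dashed line the lowest array median, 52.4. NTS and DDC 205311_at are highest on R1881-labelled arrays (means 1400 and 3464), ENO2 lies near the dashed line, and CHGA, CHGB, SCG2, SCG5 and DDC 214347_s_at lie below it.

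The first comparison sets R1881-labelled arrays against vehicle-labelled arrays and addresses androgen treatment of hormone-starved cells, as the labels give it. DDC (205311_at) was higher 7.73-fold under the label R1881, with a log2 fold change of 2.95 ± 0.06 (SE; limma, adjusted p = 2.26e-12). NTS was 3.33-fold higher (1.74 ± 0.06, adjusted p = 2.4e-10) and ENO2 1.82-fold higher (0.86 ± 0.06, adjusted p = 2.42e-07). The dim DDC probe set passed at 0.17 ± 0.06 (adjusted p = 0.0444), a change far smaller than that of the bright one. CHGB, at -0.16 with a 95% interval of -0.29 to -0.04, missed the threshold of 0.05 (adjusted p = 0.0504). The estimates for CHGA (-0.02), SCG2 (-0.02), SCG5 (-0.06) and SYP (-0.13) did not pass, and the SYP interval ran from -0.29 to 0.03. Thus 4 of 9 probe sets were called, 4 higher and 0 lower, where 27% of all probe sets were called, 14.8% higher and 12.2% lower. At least 2-fold changes were 2 of 9, against 3.08% of all, and 5 of 9 had groups that did not overlap, against 36.8% of all. Their median log2 fold change was -0.02, against 0.00 over all probe sets. In bulk RNA, fewer cells expressing a gene and less RNA per cell cannot be told apart. The call of the dim DDC probe set held in 5 of 13 alternatives. It was lost without R1881 replicate 1 or 3 (adjusted p = 0.117 and 0.108) or without vehicle replicate 1, 2 or 3 (0.0839, 0.0836 and 0.119). The call was also lost when only the 2 groups compared were fitted (0.0527), with a replicate block (0.0719) and with an offset of 32 before the log (0.146). With that offset ENO2 measured 0.51.

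In the second comparison, of gedunin plus R1881 with the R1881 label, both bright genes were lower with gedunin. DDC (205311_at) fell by 2.80 on the log2 scale (SE 0.06, adjusted p = 8.33e-12), which left 14.3% of the level on R1881-labelled arrays. NTS fell by 1.37 (SE 0.06, adjusted p = 3.62e-09), to 38.8% of that level. ENO2 fell by 0.26 (SE 0.06, adjusted p = 0.0068), and the dim DDC probe set by 0.25 (SE 0.06, adjusted p = 0.00568). CHGB was called higher with gedunin at 0.17 ± 0.06 (adjusted p = 0.0424), on values under 20 in intensity. SCG2, at 0.17 with an interval of 0.04 to 0.30, did not pass (adjusted p = 0.0541). It passed in 5 of 14 alternatives, without gedunin replicate 1 (adjusted p = 0.0469) or R1881 replicate 1 (0.0396), with quantile normalisation (0.0314), with an eBayes trend (0.0449) and with 1 probe set per gene (0.0478). CHGA (-0.02), SCG5 (-0.03) and SYP (0.10, interval -0.06 to 0.26) did not pass either. Of the 9 probe sets 5 were called, 1 higher and 4 lower, where 24.3% of all probe sets were called, 12.4% higher and 11.9% lower. Their median log2 fold change was -0.03, against -0.01 over all probe sets. Changes of at least 2-fold were 2 of 9, against 2.26% of all, and 6 of 9 had groups that did not overlap, against 34.6%. The CHGB call was lost when any 1 of the 6 arrays was left out, with adjusted p between 0.0512 and 0.164.

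The third comparison sets gedunin plus R1881 against vehicle. ENO2 was 1.52-fold higher with gedunin (0.60 ± 0.06, SE, adjusted p = 9.41e-06) and NTS 1.29-fold higher (0.37 ± 0.06, adjusted p = 0.000429). DDC (205311_at) measured 0.15 ± 0.06 with an interval of 0.03 to 0.27, and did not pass (adjusted p = 0.0796), although its groups did not overlap. Of the 9 probe sets 2 were called, both higher, where 23.5% of all probe sets were called (12.9% higher and 10.6% lower), and 0 changed at least 2-fold, against 1.98% of all. Groups did not overlap for 4 of 9, against 35.5% of all, and the median was 0.01, against -0.01. The members not called here were at -0.03 for CHGA, 0.01 for CHGB, -0.03 for SYP, 0.15 for SCG2, -0.09 for SCG5 and -0.08 for the dim DDC probe set. With the offset of 32 ENO2 measured 0.35, and DDC (205311_at) passed (0.14, adjusted p = 0.0231). DDC also passed under both filters on dim probe sets (adjusted p = 0.0427 and 0.0439) and with an eBayes trend (0.0271), in 4 of 16 alternatives in all.

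The comparisons share arrays, and the place of the gedunin arrays between the other 2 groups differed from gene to gene as a description. On the log2 scale the gedunin arrays lay 4.97% ± 0.201 (SD, n = 3) of the way from the vehicle mean to the R1881 mean for DDC (205311_at), 21.3% ± 1.25 for NTS and 70.0% ± 6.04 for ENO2. Each SD is over the 3 gedunin arrays with the other 2 means held fixed, so it leaves out the error of those means. For DDC the difference from vehicle had an interval of 0.03 to 0.27, on a distance of 2.95 between the R1881 and vehicle means. Measured from the R1881 mean to the vehicle mean, as exchanged labels would have it, the same places are 95.03% for DDC, 78.7% for NTS and 30.0% for ENO2. Over the 12 estimates of CHGA, CHGB, SCG2 and SCG5, log2 fold changes lay between -0.16 and 0.17, and no 95% interval reached a change of more than 1.24-fold. All these probe sets were dim, so a larger change of the transcript may be measured as a small one.

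**Figure D2:**
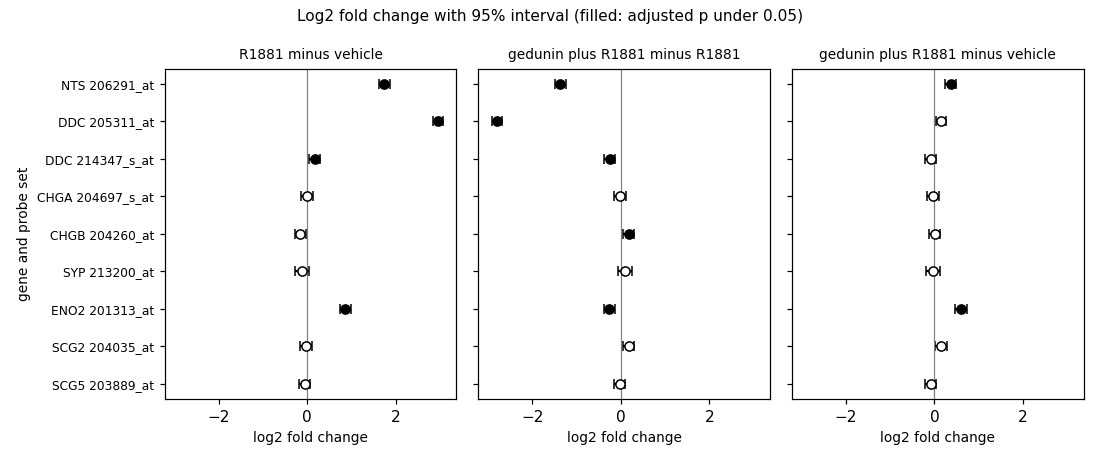
Log2 fold change with 95% interval (x axis) of the 9 probe sets (rows) in the 3 comparisons on 1 scale. Filled points passed an adjusted p of 0.05 in limma. DDC 205311_at and NTS stand far from 0 in the first and second comparisons (2.95 and 1.74, -2.80 and -1.37) and near it in the third (0.15 and 0.37), while ENO2 stays at 0.60 there.

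DDC acts at the last step of dopamine and serotonin synthesis, so other genes of amine metabolism were described from a list. Counts of genes rest on each gene's brightest probe set and on the limma fit over all probe sets. Of 26 listed genes 21 were measured, DDC included, and in the first comparison 5 were higher and 2 lower on R1881-labelled arrays, with a median of 0.03 against 0.00 over all genes, of which 16.3% were called higher and 13.2% lower. In the second comparison 1 was higher and 5 lower with gedunin (median -0.02 against -0.01), where 13.7% of all genes were called higher and 13% lower. In the third 4 were higher and 2 lower (median 0.05 against -0.01), where 14.8% were called higher and 11.4% lower.

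QDPR, which regenerates the tetrahydrobiopterin cofactor of tyrosine and tryptophan hydroxylases, averaged 162 ± 5.11 with gedunin plus R1881, 258 ± 3.99 on R1881-labelled arrays and 151 ± 7.38 on vehicle-labelled arrays (intensity, mean ± SD, n = 3). It was higher by 0.78 in the first comparison (adjusted p = 3.01e-07) and fell by 0.67 in the second (adjusted p = 1.55e-06). GCH1, the first enzyme of the synthesis of that cofactor, averaged 85.7 ± 7.61, 125 ± 15.1 and 80.3 ± 9.27 in the same groups, gedunin plus R1881, R1881 and vehicle, with log2 fold changes of 0.63 in the first comparison (adjusted p = 0.000357) and -0.54 in the second (adjusted p = 0.00141). Both genes were thus highest on R1881-labelled arrays, as DDC was. PTS, the next enzyme after GCH1, moved the other way, at -0.26 in the first comparison and 0.61 in the second. GCHFR, which feeds back on GCH1, fell by 0.55 in the second comparison and by 0.42 in the third.

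MAOA, which breaks down serotonin and noradrenaline, measured 930.1 ± 22.1 with gedunin plus R1881, 1845 ± 106 on R1881-labelled arrays and 1927 ± 61.9 on vehicle-labelled arrays (n = 3). It fell by 0.99 in the second comparison (adjusted p = 7.14e-08) and by 1.05 in the third (adjusted p = 4.46e-08), and was at -0.06 in the first, which did not pass. ALDH2, which oxidises aldehydes that amine breakdown yields, was higher at 0.44 in the first and 0.33 in the third comparison. Other genes of amine-making neurons were dim. TH, the tyrosine hydroxylase gene, averaged 19.7 with gedunin plus R1881, 19.3 on R1881-labelled arrays and 20.6 on vehicle-labelled arrays. The vesicular amine transporter genes SLC18A1 and SLC18A2 lay between 14.5 and 25.0 in the group means. None of these 3 genes passed in any of the 3 comparisons.

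**Figure D3:**
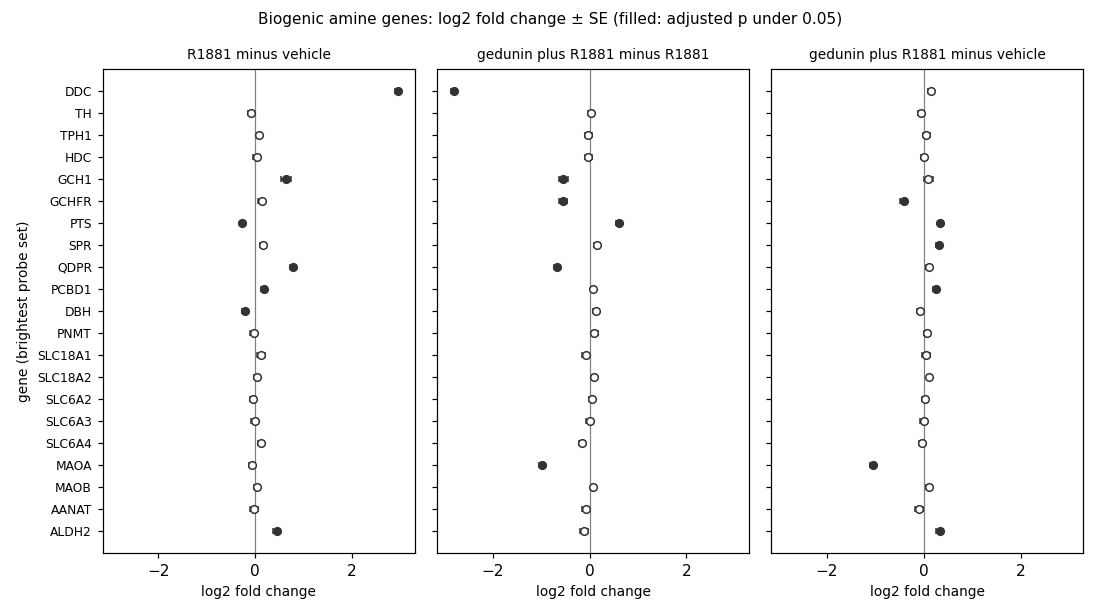
Log2 fold change ± SE (x axis) of the 21 measured genes of amine synthesis, transport and breakdown (rows, brightest probe set of each) in the 3 comparisons on 1 scale. Filled points passed an adjusted p of 0.05. DDC lies farthest from 0 in the first 2 panels (2.95 and -2.80), QDPR (0.78 and -0.67) and GCH1 (0.63 and -0.54) lie on the same sides, and MAOA is low with gedunin (-0.99 and -1.05).

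NTS acts through the receptors NTSR1 and NTSR2, whose probe sets were dim and did not pass in any comparison. NTSR1 averaged 39.0 ± 2.52 with gedunin plus R1881, 39.6 ± 5.02 on R1881-labelled arrays and 42.7 ± 1.14 on vehicle-labelled arrays, and NTSR2 27.8, 28.4 and 28.7 in the same order of groups. Of 43 listed neuropeptides and peptide receptors 40 were measured and 29 averaged under 52.4 in every group. In the first comparison 3 were higher and 2 lower (median -0.01), in the second 1 higher and 3 lower (median -0.02), and in the third 1 higher and 1 lower (median -0.04), where 29.5%, 26.7% and 26.2% of all genes were called in either direction. NTS was 1 of the higher genes in the first, 1 of the lower in the second and the 1 higher gene in the third. RAMP1, a partner protein of the calcitonin receptor-like receptor, fell by 0.68 in the second comparison (adjusted p = 1.59e-06) and by 0.58 in the third (adjusted p = 6.74e-06). NPY, the neuropeptide Y gene, fell by 0.25 in the second. UCN, the urocortin gene, was at -0.30 in the first and 0.30 in the second, VIPR1, a receptor of vasoactive intestinal peptide, at -0.22 in the first, and ADM, the adrenomedullin gene, at 0.26 in the first.

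Peptide hormones such as neurotensin are cut and trimmed in granules. Of 23 listed processing and granule genes 17 were measured, among them CHGA, CHGB, SCG2 and SCG5, and 3 were higher and 0 lower in the first comparison, 1 and 0 in the second, and 1 and 1 in the third (all genes called, 29.5%, 26.7% and 26.2%). CPE, the carboxypeptidase that trims prohormones, averaged 414 ± 4.87 with gedunin plus R1881, 469 ± 18.2 on R1881-labelled arrays and 403 ± 33.5 on vehicle-labelled arrays, and was higher at 0.22 in the first comparison (adjusted p = 0.0239). CPD, a related carboxypeptidase, was higher at 0.41 in the first and 0.54 in the third, and PAM, which amidates peptides, at 0.38 in the first. The 1 call of the second comparison was CHGB, and the 1 lower gene of the third was PTPRN (-0.21), a granule membrane protein that was dim. Medians of this list were -0.02, -0.02 and 0.00 across the first to the third comparison.

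Of 35 listed genes of vesicle docking and fusion, SYP included, 29 were measured. In the first comparison 2 were higher and 8 lower on R1881-labelled arrays (median -0.03), in the second 4 higher and 2 lower with gedunin (median 0.03), and in the third 1 higher and 8 lower (median -0.03). Of all genes, 16.3% were called higher and 13.2% lower in the first comparison, 13.7% and 13% in the second, and 14.8% and 11.4% in the third. RAB27A, a small GTPase of secretory granule docking, averaged 94.6 ± 5.91 with gedunin plus R1881, 81.8 ± 10.1 on R1881-labelled arrays and 322 ± 24.6 on vehicle-labelled arrays, and was at -1.98 in the first comparison and -1.77 in the third. RAB3B, a GTPase of regulated secretion, was at -1.44 in the first and 0.88 in the second. CADPS2, which primes granules for release, was at -1.28, 0.43 and -0.85 from the first to the third comparison, and SYNGR2, a relative of synaptophysin, at -0.84 in the third. SNAP23, a membrane fusion protein, was at -0.86 in the third comparison. STX3, an apical membrane syntaxin, was higher with gedunin at 1.13 in the second, and SYTL2, which binds RAB27A, fell by 0.33 there on group means of 24.1 with gedunin plus R1881 and 30.3 on R1881-labelled arrays. SYP itself passed in no comparison, and a difference between it and these called genes was not tested.

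Neuronal and neuroendocrine identity genes were mostly dim, with 14 of the 23 measured of 25 listed under 52.4 in every group. In the first comparison 2 were higher and 0 lower (ENO2 and NEFL), in the second 1 higher and 3 lower, and in the third 2 higher and 1 lower, with medians of -0.01, -0.02 and -0.05 (all genes called, 29.5%, 26.7% and 26.2%). TUBB3, the neuronal beta-tubulin gene, averaged 1345 ± 44.5 with gedunin plus R1881, 823 ± 71.1 on R1881-labelled arrays and 841 ± 40.8 on vehicle-labelled arrays, and was higher at 0.71 in the second and 0.68 in the third comparison. NEFL, a neurofilament gene, was at 0.56 in the first and -0.63 in the second, on intensities under 27, and its probe sets ran from -0.11 to 0.56 in the first. MAPT, the tau gene, fell by 0.32 in the second and by 0.30 in the third, with probe sets from -0.41 to 0.09 in the second. The summed intensity of these 23 genes lay between 2406 and 2508 with gedunin, between 1876 and 2069 on R1881-labelled arrays and between 1921 and 2036 on vehicle-labelled arrays. TUBB3 carried this difference: without it the sum of the other 22 genes lay between 1089.9 and 1127 with gedunin, between 1117 and 1169.9 on R1881-labelled arrays and between 1123 and 1191 on vehicle-labelled arrays.

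Of 21 listed factors linked to neuroendocrine prostate cancer 15 were measured, 11 of them under 52.4 in every group, and 1 was higher and 0 lower in each comparison, where 29.5%, 26.7% and 26.2% of all genes were called. That gene was AURKA, the Aurora A kinase gene of mitosis, which averaged 159 ± 13.1 with gedunin plus R1881, 94.6 ± 0.572 on R1881-labelled arrays and 63.1 ± 10.9 on vehicle-labelled arrays. Its log2 fold changes were 0.60, 0.75 and 1.35 across the first to the third comparison, and its 3 probe sets disagreed, with values from 0.04 to 0.89 in the first, from -0.00 to 1.09 in the second and from 0.03 to 1.98 in the third. INSM1, a neuroendocrine transcription factor gene, was dim at 22.0 with gedunin plus R1881, 21.5 on R1881-labelled arrays and 21.4 on vehicle-labelled arrays. REST, the repressor of neuronal genes, averaged 149, 142 and 147 in gedunin plus R1881, R1881 and vehicle. Neither INSM1 nor REST passed in any comparison by its brightest probe set, and the medians of the list were 0.00, 0.05 and 0.02. The 2 probe sets of REST ran from -0.05 to 0.20 in the first comparison, from -0.10 to 0.07 in the second and from 0.02 to 0.10 in the third.

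The enolase family was set beside ENO2. ENO1, the form of most tissues, averaged 2759 ± 38.4 with gedunin plus R1881, 2130 ± 67.3 on R1881-labelled arrays and 2253 ± 28.7 on vehicle-labelled arrays. It was higher at 0.37 in the second and 0.29 in the third comparison, and did not pass in the first (-0.08). ENO3, the muscle form, was higher at 0.31 in the third comparison (adjusted p = 0.0414). ENO2 was the 1 called gene of 3 in the first comparison, all 3 were higher in the third, and in the second it was lower where ENO1 was higher. Of all genes, 16.3% were called higher in the first comparison and 14.8% in the third, and 13.7% higher and 13% lower in the second.

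The probe sets of other genes nearest to NTS and DDC were found by the root mean square difference of centred log2 values over the 9 arrays, a description over arrays that share groups. Nearest to NTS were NAIP (0.05), PLA2G2A, a secreted phospholipase (0.07), ATG3, an autophagy enzyme (0.07), and GALNT3, which starts mucin-type glycosylation (0.09). NAIP averaged 102 with gedunin plus R1881, 272 on R1881-labelled arrays and 79.3 on vehicle-labelled arrays. Nearest to DDC 205311_at were 2 probe sets of GRB10, an adaptor that restrains insulin receptor signalling (0.13 and 0.22), CALD1, the caldesmon gene (0.21), and MMP16, a membrane-type matrix metalloproteinase (0.21). The nearer GRB10 probe set averaged 353 with gedunin plus R1881, 1996 on R1881-labelled arrays and 299 on vehicle-labelled arrays. The probe sets nearest to DDC 214347_s_at, of CLMN, ATP10B, METTL17 and ARSJ, were at 0.04 each and moved as little as it did.

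**Figure D4:**
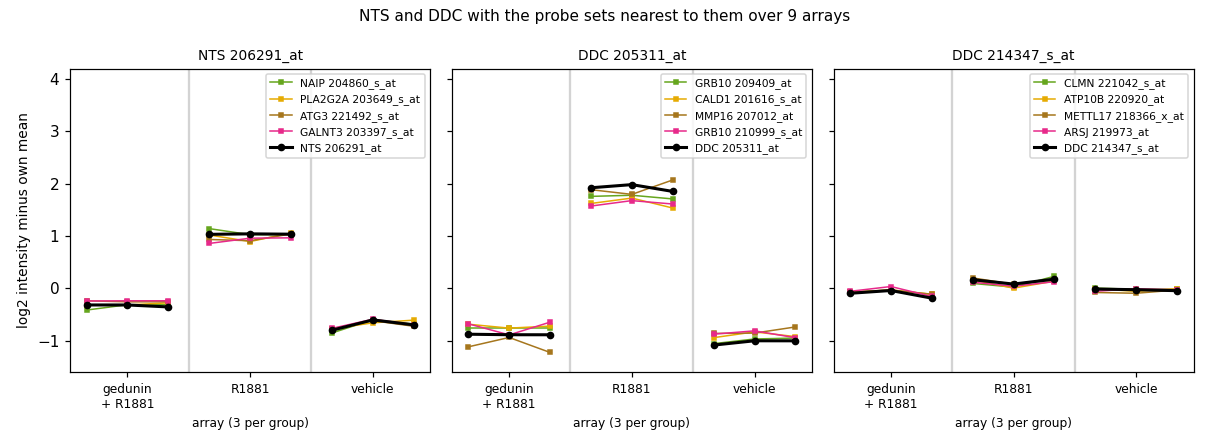
Log2 intensity of each probe set minus its own mean over 9 arrays (y axis), by array and label (x axis), for NTS, both DDC probe sets (black) and the 4 probe sets of other genes nearest to each (colours). The NTS set sits about 1 above its mean on R1881-labelled arrays, the DDC 205311_at set between about 1.5 and 2 above, and the DDC 214347_s_at set near 0 throughout.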

How the data were processed

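The authors deposited linear intensities, 1 for each probe set on each array. RMA is named in the submitters' processing notes, and the program that ran it is not given in the sources used here. RMA subtracts background, makes the arrays' distributions alike and summarises probes by median polish. Deposited intensities lay between 8.63 and 20189, with array medians of 52.4 to 54.5, and were taken to log2 here. Of 22277 probe sets 62 were controls and left out; 19064 had 1 gene symbol in the platform annotation, 1043 several and 2108 none. Symbols were compared with RefSeq by gene identifier, and 0 changed.

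Limma 3.58.1 in R 4.3.3 was fitted over all 9 arrays (1 coefficient per group, contrasts, eBayes without trend, two-sided), with Benjamini-Hochberg adjustment over 22215 probe sets and a threshold of 0.05. Precision is limited by 3 arrays per group, and an exact permutation test of 3 against 3 cannot go below p = 0.1. The fit was tested on simulated data. Levels of different probe sets were not tested against each other. Sums over markers and the words bright and dim are descriptions only.

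The members and lists were chosen with earlier results of these data known. Named are all member probe sets, up to 4 called genes of each list per comparison with the largest change, fixed genes of amine, peptide and androgen biology, and the 4 probe sets nearest to NTS and to each DDC probe set. Other genes of the androgen and luminal lists that the rule names are given without values or left out, beside KLK3, KLK2, TMPRSS2 and FKBP5, which check the labels. OPRK1 and TRPM8 lie outside the rule and were named after their values were seen, to complete a count. Fixed genes without a probe set of 1 symbol in the annotation are not analysed here. Alternatives were the scaling, an offset of 32, filters on dim probe sets, the variance model, the arrays fitted, a replicate block, 1 probe set per gene and leaving out each array.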

Additional observations from a re-analysis of the deposited data

How the results depend on the processing

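The values of the bright DDC probe set and of NTS kept their calls in the first 2 comparisons under all 16 alternatives, between 2.86 and 2.99 and between -2.85 and -2.73 for DDC and between 1.66 and 1.79 and between -1.44 and -1.32 for NTS. ENO2, which the filter on the mean left out, kept its call in all 3 comparisons under its 15 alternatives. Over all member values, 18 calls were lost, 12 were gained and 7 uncalled values changed sign, and no called value reversed; lost calls were those of CHGB and of DDC 214347_s_at. A filter on the mean, above the lowest array median, kept 3 of the 9, with 2 called in each comparison. Under this filter 5268, 5050 and 4836 of 11337 probe sets were called across the first to the third comparison. The filter of 3 arrays kept 4 of the 9, with 3 called in each comparison. There 5409, 5151 and 4945 of 11666 probe sets were called. At least 2-fold changes were 2, 2 and 0 of the 9 and 684, 501 and 439 of all probe sets across the first to the third comparison. With 1 probe set per gene, 3624, 3277 and 3219 of 11963 genes were called, fewer because fewer features were tested. Leaving out 1 array gave 3 to 4, 4 to 5 and 2 to 2 called member probe sets, and 5209 to 5644, 4614 to 5300 and 4286 to 4801 of all probe sets.

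Replicate numbers do not pair the arrays by the labels, and deviations of same-numbered arrays correlated between -0.10 and 0.14, against -0.15 to 0.16 for other pairs. With a replicate block, 3, 4 and 2 member probe sets were called, and 5897, 5297 and 5107 of all.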

Other observations

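GRB10, the gene nearest to DDC in its values over the 9 arrays, is also the next protein-coding gene beside DDC on chromosome 7 in the RefSeq gene order (GRCh38.p14, used for names and order). This was looked up after its values were seen. All 4 GRB10 probe sets were called higher on R1881-labelled arrays than on those labelled vehicle, with log2 fold changes between 2.14 and 2.74, and lower with gedunin plus R1881 than on R1881-labelled arrays, between -2.50 and -2.00 (limma, largest adjusted p = 3.98e-10). In the set of gedunin plus R1881 against vehicle they lay between 0.00 and 0.24, and 1 of 4 was called. The neighbour of DDC on the other side, FIGNL1, is not analysed here.

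Of the genes beside NTS, RASSF9 averaged 19.5 ± 1.00 with gedunin plus R1881, 20.2 ± 0.927 on R1881-labelled arrays and 19.2 ± 0.0843 on vehicle-labelled arrays, and MGAT4C 10.1, 10.8 and 10.5 (intensity, mean ± SD, n = 3). Both were under the lowest array median and called in none of the 3 comparisons. Beside ENO2, LRRC23 averaged 101 ± 2.02 with gedunin plus R1881, 97.1 ± 16.1 on R1881-labelled arrays and 102 ± 4.08 on vehicle-labelled arrays, and the 3 probe sets of ATN1 were not called. Of 16 genes beside the 8 members 11 were measured. GRB10 and ITPK1, 2 of these 11, were called higher in the first comparison and lower in the second. ITPK1 lies beside CHGA, which passed in no comparison. The brightest ITPK1 probe set measured 0.33 and -0.47 (limma, adjusted p = 0.000679 and 3.81e-05). Its other probe sets were not called. GOLGA5, on the other side of CHGA, was called the opposite way (-0.78 and 0.58). These genes are named for their place, and no test of the link between place and values was made.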
